A study of Homo sapiens with 9 samples.

Results

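HepG2 cells, an established human hepatic tumor line, were compared after 12 h without glutamine (Gln) and with Gln added, by RNA-seq of 3 libraries per group. Every gene of the deposited table whose FPKM (fragments scaled to gene length and library depth) averaged 0.5 or more in these 6 libraries was taken, which gave 11840 of 22587 genes. All cells grew in high-glucose DMEM with 10% serum. The labels list no transgene or knockdown for these libraries, and the 3 other libraries of the table, from cells deprived for 24 h, entered the fit as a further group and helped to estimate the spread. The labels disagree on GlutaMAX, a stable dipeptide source of Gln: the entry for treatment gives it to the controls, whereas the treatment protocol and the study's methods place it in the deprivation medium. They also name a different library kit from the one in the methods, so it is not known here whether strand was used in counting. Nothing states that the 3 libraries of a group came from separate cultures, so p-values measure the spread between these libraries, which may be technical.

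Gln supplies nitrogen for nucleotides, asparagine and other amino acids, and its carbon enters the tricarboxylic acid cycle as glutamate and then 2-oxoglutarate. Cells that run short of an amino acid accumulate uncharged tRNA, which activates the kinase GCN2. Phosphorylation of eIF2 alpha then lowers general translation and favors translation of ATF4, a transcription factor of the integrated stress response (ISR) that activates genes for amino acid synthesis, import and tRNA charging. Hepatocyte-like cells such as HepG2 also make cholesterol, fatty acids and plasma proteins at high rates.

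The 6 libraries held between 29621270 and 36261546 fragments on genes, and the 10 most abundant genes took 8.65% to 9.04% of them. Replicates varied by a median of 2.84% (coefficient of variation) with Gln added and 4.02% at 12 h for genes above 10 FPKM. Markers of HepG2 (10 genes, such as ALB and AFP) summed to 7405 to 7504 FPKM with Gln added and to 6495 to 6562 FPKM at 12 h. Markers of fibroblasts (7 genes in the table, THY1 at 0 in all 6 libraries) summed to at most 0.518 FPKM, and those of endothelial cells (4 genes) to at most 0.403 FPKM. The 6 immune cell markers in the table summed to 771 to 791 FPKM with Gln added and 555 to 595 FPKM at 12 h, nearly all of it LYZ, and 2 of them, ITGAM and NKG7, were under 0.1 FPKM in all 6 libraries. The part of these markers in the results was not tested. In bulk RNA, fewer cells of a kind and less RNA per cell cannot be told apart.

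After 12 h without Gln, 7133 genes (60.2% of those tested) differed from Gln added at an adjusted p under 0.05 by limma on log2(FPKM + 0.1). Of all genes tested, 29.0% (3430 genes) were higher and 31.3% (3703 genes) lower. Most differences were small: the median size was 0.39 on the log2 scale, and 66.2% of the called genes moved by less than 0.5. A difference of at least 2-fold that was also called was found for 3.93% of genes (465), 1.93% higher (228) and 2.00% lower (237). The 3 libraries of one group lay wholly above the 3 of the other for 32.7% of genes (3867) in the direction of higher and for 34.7% (4103) in the direction of lower levels at 12 h. A lack of overlap was thus common among all genes tested. Most genes named below were picked as called genes with large changes, so a lack of overlap in them is no separate result. With this many genes moving, a list is described below by its counts beside 29.0% and 31.3%, and by its median beside the median of all genes tested, -0.02. Of the 535 genes over 100 FPKM, 130 were higher and 237 lower, with a median of -0.07.

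The genes that rose most were an immediate early factor, a xenobiotic enzyme, a hepatic insulin-like growth factor binding protein and several genes of stress and growth factor signaling. EGR1, a zinc finger factor induced within minutes by growth factors and stress, was at 0.438, 0.465 and 0.403 FPKM in the 3 libraries with Gln added and at 12.6, 13.6 and 12.8 FPKM in the 3 libraries at 12 h. These libraries differed 29.9-fold in mean (log2 fold change 4.61, SE 0.074, adjusted p = 3.54e-11 by limma), and the groups lay far apart. EGR1 lies on chromosome 5 from 138465479 to 138469303 of GRCh38 (GENCODE v44). CYP1A1, a cytochrome P450 that oxidizes aromatic compounds, rose from 6.31, 6.48 and 5.90 FPKM to 62.4, 63.0 and 58.3 FPKM. IGFBP1, a secreted liver protein that binds insulin-like growth factors and is repressed by insulin, was already abundant with Gln added at 98.0, 93.7 and 95.1 FPKM and reached 853, 818 and 816 FPKM. This was a rise of 8.67-fold in mean (log2 fold change 3.12, SE 0.037, adjusted p = 4.86e-12 by limma). The replicates of each of the 3 genes stayed close to each other. No library of one group reached the other, which was required of every gene taken for the 12 largest rises and the 12 largest falls.

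AKNA, an AT-hook protein of the centrosome, rose from 0.988, 0.945 and 0.976 FPKM to 6.31, 6.30 and 5.69 FPKM. SMOX, which oxidizes the polyamine spermine and releases hydrogen peroxide, was at 12.4, 13.7 and 12.1 FPKM with Gln added and 63.5, 64.8 and 61.7 FPKM at 12 h. AREG, a ligand of the epidermal growth factor (EGF) receptor, went from 1.203, 1.07 and 1.00 FPKM to 6.37, 4.87 and 5.44 FPKM, with the widest spread of these 3 at 12 h but no overlap. DEPP1, a FOXO-regulated protein of autophagy, rose to 39.3, 40.6 and 39.1 FPKM from 9.09, 8.24 and 7.90 FPKM, and exons on the opposite strand cover 23.3% of its exonic bases, so part of its signal could come from the other strand if strand was not used. UGT2B4 (log2 fold change 2.16), which glucuronidates bile acids and belongs to a family of similar sequence, and GTPBP2 (2.16), a GTPase that helps to rescue stalled ribosomes, complete the genes of this kind. UGT2B4 was at 0.784, 0.648 and 0.869 FPKM with Gln added and 3.46, 3.73 and 4.14 FPKM at 12 h. Its change was 1.43 with a pseudocount of 1. The groups of these genes did not overlap either, as the choice of the largest rises required.

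Below an average of 1 FPKM, the genes with the largest rises beside ASNS and FOS were KLHDC7B, FUT1 and SLC22A15, named after their values were seen. KLHDC7B, a kelch-domain protein, was counted with 1 to 5 fragments in a control library and 299 to 355 at 12 h, that is 0.00547, 0.0279 and 0.00549 FPKM against 2.06, 1.91 and 1.62 FPKM. FUT1, the fucosyltransferase of the H antigen, had 9 to 12 and 109 to 164 fragments, and SLC22A15, an organic cation transporter, 29 to 40 and 219 to 326 fragments. Near the pseudocount the log2 fold changes, 4.12, 2.57 and 2.37, understate such rises, and with a pseudocount of 1 they were 1.50, 0.85 and 0.85. The libraries of the groups did not overlap for any of the 3 genes.

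**Figure D1:**
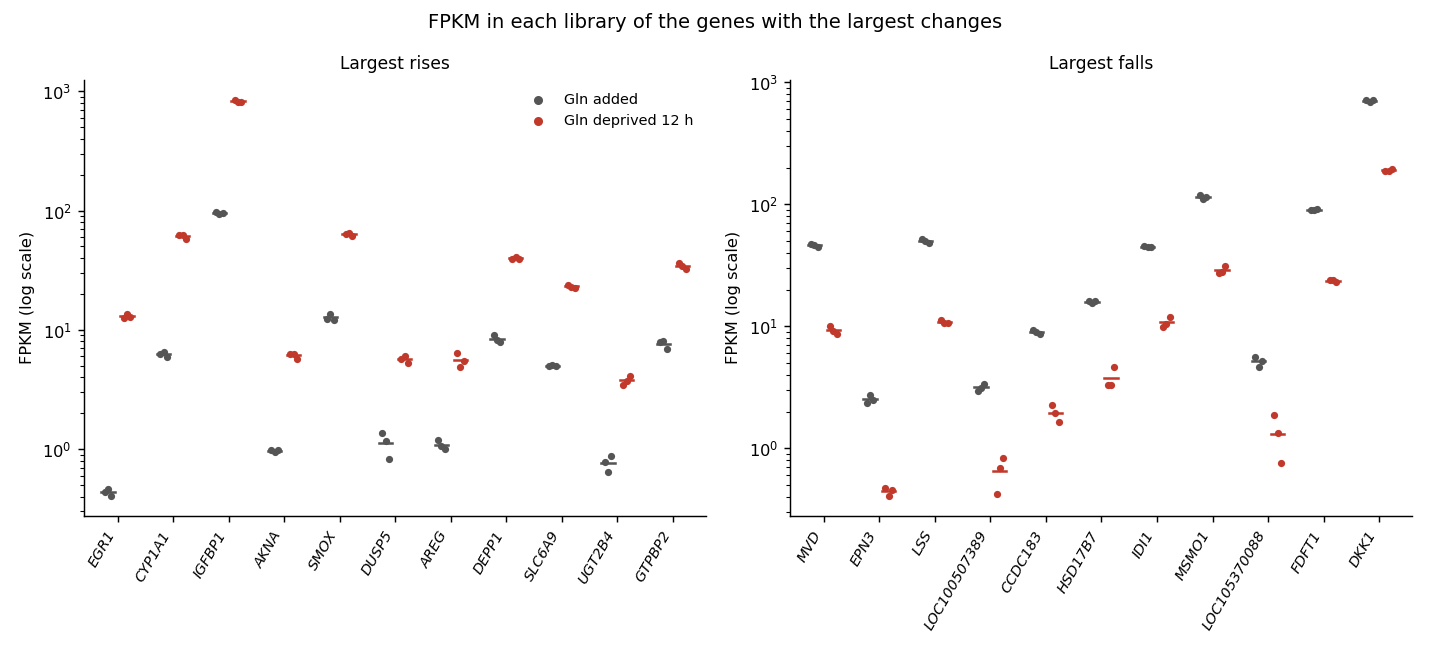
FPKM (log scale) in each library of 11 of the 12 genes with the largest rises (left) and 11 of the 12 with the largest falls (right) among genes averaging 1 FPKM or more; grey points are Gln added, red points 12 h of Gln deprivation, and short lines the group means. Groups without overlap were required for a gene to be chosen, so their distance in all 22 genes is no separate result. The spread within a group is plain to see in genes of a few FPKM, such as DUSP5, LOC100507389 and LOC105370088.

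Genes of the ISR rose nearly as a block. Of 20 tested members (factors, feedback genes and secreted signals), 19 were higher and 0 lower, 17 of them by at least 2-fold, with a median of 1.42 against -0.02 for all genes. TRIB3, DDIT3, SESN2 and CEBPB were picked in the study from these same libraries, so the count is not independent of that choice. PPP1R15A, the GADD34 subunit that returns eIF2 alpha to its unphosphorylated state, rose from 6.90, 6.53 and 6.35 FPKM to 28.3, 29.3 and 27.1 FPKM (log2 fold change 2.08, SE 0.045, adjusted p = 1.53e-10 by limma). INHBE, the inhibin beta E chain secreted by liver cells, was at 13.2, 13.0 and 12.7 FPKM with Gln added and 54.8, 56.1 and 54.2 FPKM at 12 h, and ADM2, a peptide hormone, at 1.01, 1.00 and 0.886 FPKM and 4.69, 4.41 and 4.08 FPKM. All 3 rose about 4-fold, from quite different levels, without overlap of the groups. TRIB3, a pseudokinase that restrains ATF4 and AKT, was the most abundant of the 4 members with the largest rises, at 64.1, 65.9 and 62.9 FPKM with Gln added and 272, 266 and 246 FPKM at 12 h. The mRNA of ATF4 itself, which is regulated mainly in translation, rose by only 0.88, less than those of its partners DDIT3 (1.72, 31.6% of its exonic bases overlapped on the opposite strand), ATF3 (1.61) and CEBPB (1.44). ATF5, a related factor, was the member that did not pass (log2 fold change 0.02, adjusted p = 0.828 by limma). Of the stress hormones, GDF15 rose by 1.79 and FGF21 stayed below the filter, as did CHAC1, which degrades glutathione. CHAC1 was listed at 0, 0.00941 and 0.00925 FPKM with Gln added and at 0.139, 0.141 and 0.0730 FPKM at 12 h, and FGF21 was under 0.1 FPKM in all 6 libraries.

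Of the 20 cytosolic aminoacyl-tRNA synthetases, which charge tRNA with amino acids, 13 rose and 4 fell, with a median of 0.61. The largest rises were those for methionine, cysteine, glycine and serine: MARS1 went from 44.8, 45.1 and 43.3 FPKM to 142, 139 and 136 FPKM, CARS1 from 7.71, 8.58 and 8.21 to 24.7, 25.0 and 22.9 FPKM, GARS1 from 61.6, 61.6 and 62.7 to 181, 174 and 177 FPKM and SARS1 from 45.1, 43.6 and 45.7 to 115, 119 and 113 FPKM. The SE of their log2 fold changes (1.65, 1.56, 1.52 and 1.36) was between 0.034 and 0.055, and no groups overlapped. The enzyme for Gln itself, QARS1, did not pass the test (log2 fold change 0.03, adjusted p = 0.449 by limma), and neither did VARS1 (0.00). Those that fell were RARS1 (-0.49), KARS1 (-0.22), FARSA (-0.21) and FARSB (-0.20), for arginine, lysine and the 2 subunits for phenylalanine.

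The promoters of these genes show how unevenly the letters TGATGNAA, a core of the C/EBP-ATF element bound by ATF4 dimers, are spread. Within 250 bases before to 50 after the gene start (RefSeq, GRCh38.p14, 1 promoter per gene), either strand held them in 6 of 16 synthetase promoters (37.5%), in 3 of 17 promoters of amino acid transporters (17.6%), in 1 of 9 of serine and one-carbon genes (11.1%) and in 1 of 16 of the ISR factors and feedback genes (6.25%, that of ATF3). They were in 1.63% of the 9522 promoters of tested genes and in 3.67% of all 27305 promoters of the set. Among genes changed at least 2-fold they occurred in 15 of 166 promoters of genes that rose (9.04%) and in 1 of 174 of genes that fell (0.575%). Stretches of 30 bases around the match, written in the direction of transcription with the match in capitals (TGATGNAA or its reverse complement, TTNCATCA), are shown for the synthetases, whose matches are all the same 8 letters on one strand or the other.
MARS1: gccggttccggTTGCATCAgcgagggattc
CARS1: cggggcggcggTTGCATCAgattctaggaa
TARS1: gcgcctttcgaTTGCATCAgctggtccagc
IARS1: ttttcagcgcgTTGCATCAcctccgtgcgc
AARS1: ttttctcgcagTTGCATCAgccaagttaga
NARS1: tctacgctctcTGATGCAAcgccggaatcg
In GRCh38 they lie at chr12:57488053-57488082 (plus strand), chr11:3057407-3057436 (minus), chr5:33440956-33440985 (plus), chr9:92293692-92293721 (minus), chr16:70289675-70289704 (minus) and chr18:57621804-57621833 (minus). The 6 genes rose by 0.61 to 1.65 on the log2 scale. GARS1 and SARS1 also rose by more than 1 and have no match in this window, which says only that these letters are not in it. A match is a description of sequence, not of binding.

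Importers of amino acids followed the same direction: 17 of 21 tested transporters rose and 3 fell, with a median of 0.53. SLC6A9, which carries glycine, was at 4.97, 5.04 and 5.01 FPKM with Gln added and 23.9, 22.9 and 22.6 FPKM at 12 h (log2 fold change 2.18, SE 0.042, adjusted p = 8.69e-11 by limma). SLC7A11, the cystine-glutamate exchanger, rose from 10.55, 9.75 and 9.78 FPKM to 30.4, 29.6 and 36.0 FPKM. The carriers of arginine and lysine SLC7A1 and SLC7A2 went from 17.3, 17.7 and 16.9 to 51.1, 49.4 and 47.2 FPKM and from 12.4, 12.9 and 12.4 to 29.4, 29.8 and 31.3 FPKM. No groups overlapped for these 4. SLC1A5, a carrier of Gln, rose by 1.23, and SLC3A2, the heavy chain that SLC7A5 and SLC7A11 share, by 1.16. The SLC38 family, which includes carriers of Gln, moved both ways. SLC38A1 rose by 0.90, SLC38A3 by 0.79 and SLC38A2 by 0.78, while SLC38A4 and SLC38A5 fell. The members that fell were SLC38A4 (-0.78, or -0.49 with a pseudocount of 1), SLC38A5 (-0.41) and SLC36A4 (-0.37), and SLC36A1 did not pass (0.15). SLC36A4 lost its call, at -0.28 and -0.27, without replicate 3 of Gln added and without replicate 1 at 12 h.

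In a list of serine synthesis, the folate cycle and cysteine synthesis (CBS and CTH), 10 of 15 tested genes rose and 3 fell. The median, which is the value of CBS, was 0.61 (0.35 without replicate 3 of Gln added and 0.83 without replicate 1 of Gln added). CTH, which makes cysteine from cystathionine, rose from 1.72, 1.48 and 1.51 FPKM to 6.66, 6.71 and 6.87 FPKM. The mitochondrial folate enzymes MTHFD2 (from 21.0, 19.8 and 21.1 to 63.5, 65.9 and 70.6 FPKM), MTHFD1L (from 5.89, 5.95 and 6.16 to 14.1, 14.01 and 13.9 FPKM), ALDH1L2 (1.56 on the log2 scale) and SHMT2 (0.85) rose. Their cytosolic counterparts SHMT1 and MTHFD1 fell, by 0.79 and 0.60 on the log2 scale. PHGDH (0.98), PSAT1 (0.94) and PSPH (0.31), the 3 steps from glycolysis to serine, were all higher. With a pseudocount of 1, the rise of ALDH1L2, the least abundant, was 0.82.

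Of 21 tested enzymes that make or use Gln, glutamate, asparagine and proline, 8 rose and 8 fell, with a median of 0.06. Each share was 38.1%, beside 29.0% higher and 31.3% lower among all genes tested, so the counts set this list little apart. ASNS, asparagine synthetase, was counted with 14 to 15 fragments in a control library and 187 to 218 at 12 h, 0.130, 0.124 and 0.130 FPKM against 1.95, 1.86 and 1.61 FPKM. In GENCODE v44, 49.3% of its exonic bases also belong to a gene annotated on that strand, so its level is uncertain, and its log2 fold change of 3.06 became 1.31 with a pseudocount of 1. GLUL, Gln synthetase, did not pass the test (log2 fold change 0.06, adjusted p = 0.186 by limma) and was at 33.5, 32.2 and 33.4 FPKM with Gln added and 35.0, 34.1 and 34.0 FPKM at 12 h, close together though not overlapping. GLS2, a glutaminase of liver, fell from 8.56, 8.94 and 8.47 to 6.38, 6.20 and 6.03 FPKM. Related enzymes went opposite ways within 3 families. Among the aminotransferases, the cytosolic GOT1 rose by 0.83 and the mitochondrial GOT2 fell by 0.57 on the log2 scale. The mitochondrial GPT2 rose from 61.9, 62.3 and 63.9 to 115, 114 and 111 FPKM, and the cytosolic GPT, far less abundant, fell from 2.23, 2.19 and 1.97 to 1.09, 1.14 and 0.765 FPKM. Of the enzymes that close the proline ring, the mitochondrial PYCR1 rose by 0.29 on the log2 scale, and the cytosolic PYCR3 fell from 2.52, 2.48 and 2.25 to 1.19, 1.32 and 0.9802 FPKM. In none of these pairs did the groups overlap. With a pseudocount of 1, the falls of GPT and PYCR3 were -0.65 and -0.66.

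**Figure D2:**
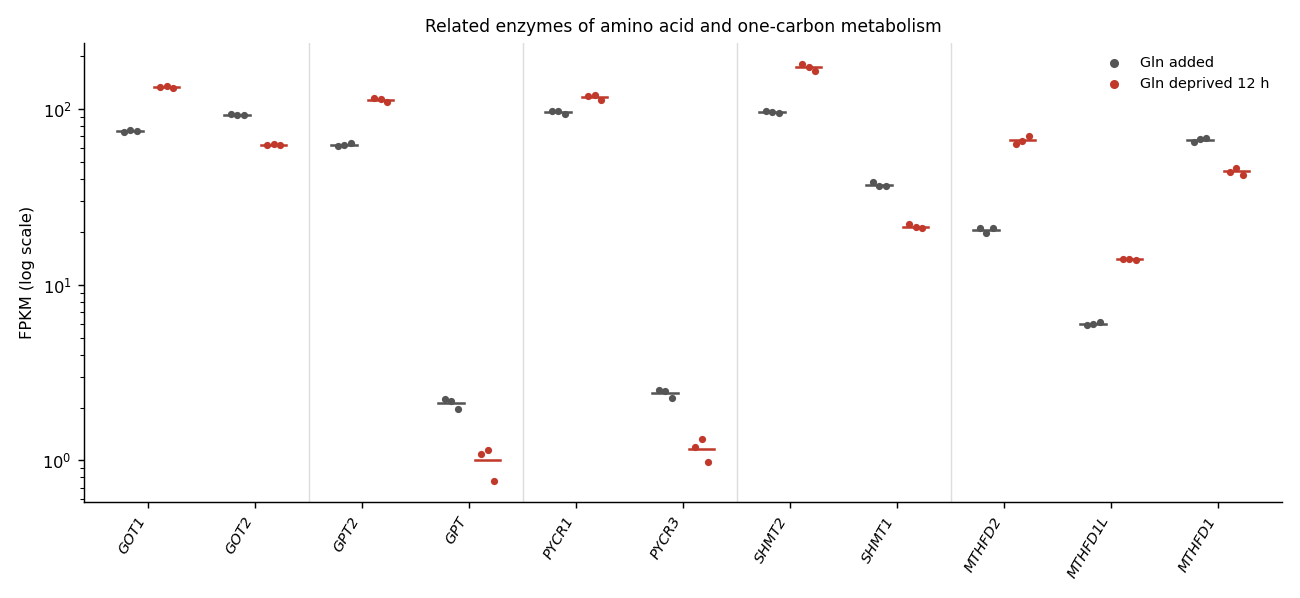
FPKM (log scale) in each library of enzymes related in sequence or reaction, with Gln added (grey) and after 12 h of Gln deprivation (red); short lines are group means and vertical lines separate the families. Within each family at least 1 gene is higher and 1 lower at 12 h, as for GOT1 and GOT2 or SHMT2 and SHMT1.

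De novo synthesis of nucleotides, which takes nitrogen from Gln at several steps, was lower in 16 of 21 tested genes and higher in 1 (median -0.27). RRM1, the large subunit of ribonucleotide reductase, fell from 36.7, 36.6 and 39.3 FPKM to 16.2, 16.6 and 15.9 FPKM, and TYMS, which makes thymidylate, from 138, 131 and 133 FPKM to 81.5, 79.2 and 80.9 FPKM, although exons on the opposite strand cover 47.9% of TYMS. The groups were well apart in both. PRPS2, which makes the ribose phosphate donor, fell by 0.68 on the log2 scale. Of the enzymes that take the amide nitrogen of Gln, PPAT (-0.24), PFAS (-0.27), GMPS (-0.19) and CTPS1 (-0.27) were lower and CAD did not pass (-0.12). GART, with 3 activities of purine synthesis, was the exception that rose (0.46).

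Immediate early genes and the AP-1 subunits rose in 14 of 16 tested members, with 1 lower and a median of 1.23. FOS, the AP-1 subunit that pairs with JUN, was rare, with 13 to 19 fragments in a control library and 95 to 126 at 12 h, and its log2 fold change of 2.31 became 1.03 with a pseudocount of 1. IER3, a short-lived regulator of survival, was abundant and rose from 38.2, 34.9 and 34.7 FPKM to 154, 150.3 and 141 FPKM, and KLF10, a zinc finger factor of the transforming growth factor beta pathway, from 8.20, 7.70 and 8.22 FPKM to 28.7, 31.2 and 30.4 FPKM. JUN, the partner that the study follows, was at 18.3, 18.2 and 17.6 FPKM with Gln added and 48.7, 50.1 and 45.5 FPKM at 12 h, and MYC, a factor of growth, at 30.5, 30.4 and 30.8 FPKM and 64.9, 68.2 and 60.8 FPKM. In each of these 5 genes every library at 12 h was above every library with Gln added. JUNB (1.47) and FOSL1 (1.17) rose as well, JUND did not pass (-0.04) and BTG2, an antiproliferative gene, fell (-0.60). In the promoter window used above, the AP-1 letters TGANTCA were in 4.37% of promoters of tested genes. Their share was 5.42% for genes that rose at least 2-fold and 3.45% for genes that fell.

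Feedback inhibitors of MAP kinases, which are transcribed when these kinases are active, rose in 12 of 14 tested members (1 lower, median 0.80). DUSP6, a phosphatase of cytoplasmic ERK, rose from 17.1, 16.96 and 16.9 FPKM to 67.6, 70.8 and 74.0 FPKM, and DUSP5, a phosphatase of nuclear ERK, from 1.37, 1.18 and 0.829 FPKM to 5.64, 6.07 and 5.28 FPKM. ERRFI1, which inhibits the EGF receptor, was at 61.1, 58.8 and 58.4 FPKM and then 196, 198 and 194 FPKM, and SPRY4, an inhibitor of receptor signaling, at 6.54, 7.31 and 6.86 FPKM and 18.4, 18.9 and 17.3 FPKM. None of the 4 showed overlap between groups. Exons on the opposite strand cover 28.6% of DUSP6 and 38.9% of IER3, which matters if strand was not used in counting. DUSP7 was the member called lower (log2 fold change -0.14), a call lost without any 1 of the 6 libraries (-0.16 to -0.11), and DUSP14 did not pass (0.09).

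In a mixed list of insulin-repressed genes, FOXO factors and insulin signaling genes, 11 of 14 tested members were higher and 1 lower (median 0.66). Beside IGFBP1 and DEPP1 the largest rises were those of TRIB1, a pseudokinase that binds the ubiquitin ligase COP1, at 12.1, 13.5 and 11.6 FPKM with Gln added and 35.2, 32.6 and 33.1 FPKM at 12 h, and IRS2, an adaptor of the insulin receptor, at 0.371, 0.358 and 0.434 FPKM and 1.03, 0.801 and 0.820 FPKM. With a pseudocount of 1 the change of IRS2 was 0.44 in place of 1.01. The insulin receptor INSR (0.56) and FOXO3 (0.76) were higher, PCK1 was below the filter while its mitochondrial counterpart PCK2 rose (0.94), and CITED2 was the member that fell (-0.70).

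Of 9 targets and subunits of MondoA and ChREBP, factors that sense glucose phosphates, 8 rose and 1 fell (median 0.69). TXNIP, an arrestin-domain protein that limits glucose uptake, rose from 10.8, 10.4 and 10.8 FPKM to 36.1, 34.6 and 37.3 FPKM, and its relative ARRDC4 from 1.46, 1.36 and 1.31 FPKM to 4.23, 4.11 and 4.76 FPKM. KLF11 (0.89) and HBP1 (0.78) rose less, and ARRDC3, of the same arrestin family, fell (-0.72). In TXNIP and ARRDC4 the 3 replicates of a group lay within a narrow range and no groups overlapped.

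The list with the lowest median was that of cholesterol synthesis, in which acetyl-CoA is built through mevalonate and squalene into sterols under the control of SREBP-2. Of 21 enzymes, 20 fell and 0 rose, 16 of them by at least 2-fold, with a median of -1.69. MVD, which decarboxylates mevalonate diphosphate, fell from 47.7, 46.0 and 45.0 FPKM to 10.0, 9.07 and 8.68 FPKM (log2 fold change -2.31, SE 0.062, adjusted p = 6.54e-10 by limma), and lies on chromosome 16 from 88651935 to 88663161. LSS, which closes the sterol rings, went from 51.8, 49.8 and 48.2 FPKM to 11.3, 10.55 and 10.7 FPKM, HSD17B7, a sterol ketone reductase, from 16.05, 15.5 and 16.3 FPKM to 3.31, 3.32 and 4.65 FPKM, and IDI1, an isomerase of the isoprene unit, from 45.5, 44.9 and 44.5 FPKM to 9.92, 10.49 and 12.0 FPKM. Each of the 4 fell more than 4-fold in mean, and HSD17B7 was higher in replicate 3 at 12 h than in the other two without reaching the libraries with Gln added.

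The fall was not equal along the pathway. From acetyl-CoA to mevalonate, ACAT2 (-1.69) and HMGCS1 (-1.81) fell alike, and PMVK, a kinase that acts after mevalonate, fell by only 0.57 on the log2 scale. After farnesyl diphosphate, FDFT1 and SQLE of the sterol branch fell by 1.93 and 1.81, whereas GGPS1, which leads to geranylgeranylated proteins instead, did not pass the test (log2 fold change -0.03, adjusted p = 0.676 by limma). GGPS1 was at 6.22, 6.42 and 6.52 FPKM with Gln added and 6.07, 6.17 and 6.58 FPKM at 12 h. At the end of the pathway DHCR7 fell by 1.89 on the log2 scale.

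**Figure D3:**
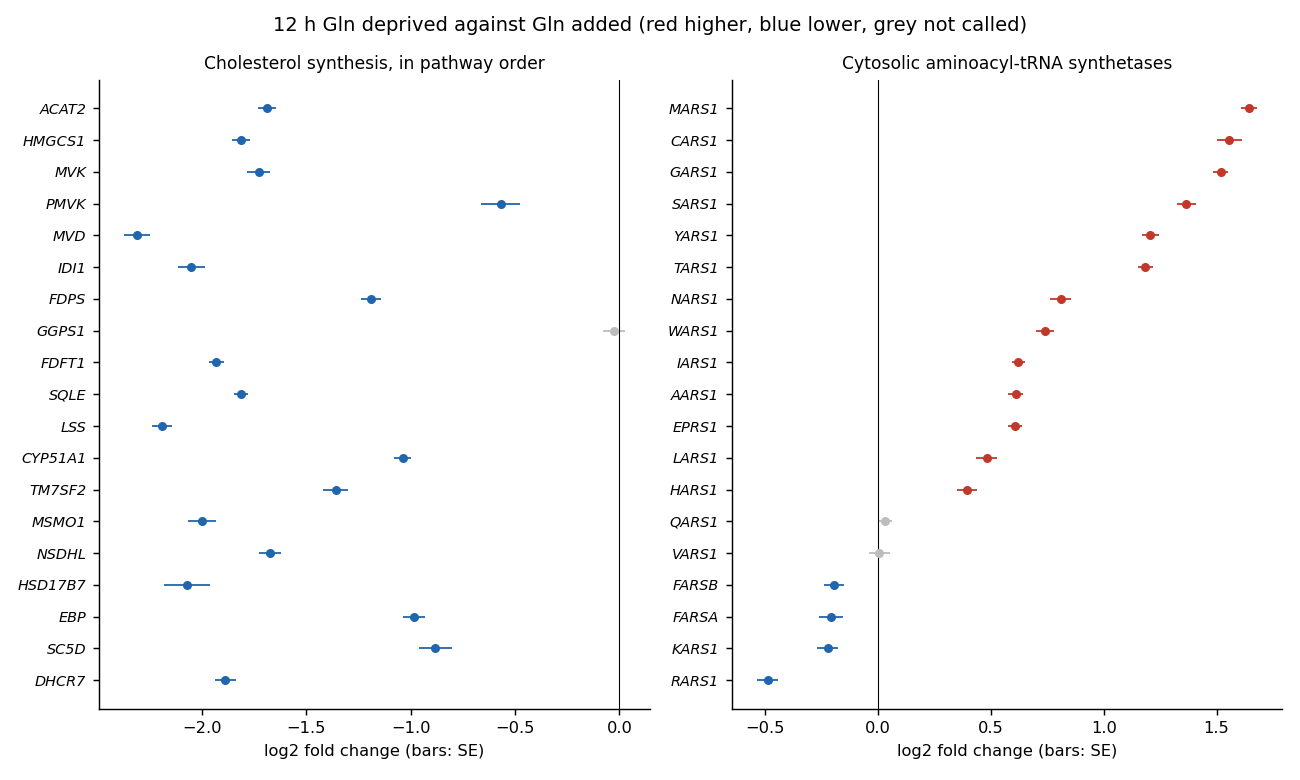
Log2 fold change at 12 h against Gln added with its SE (bars) for enzymes of cholesterol synthesis in the order of the pathway (left) and for cytosolic aminoacyl-tRNA synthetases in order of change (right); red is called higher, blue called lower and grey not called. All sterol enzymes drawn but GGPS1 are called lower, with a weak fall at PMVK, and the synthetases run from RARS1 at -0.49 to MARS1 at 1.65.

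Among 13 tested genes of sterol sensing and uptake, 7 fell and 2 rose (median -0.13). STARD4, a sterol carrier, fell from 9.21, 8.33 and 9.35 FPKM to 2.57, 2.95 and 3.44 FPKM, TMEM97, a sterol-responsive membrane protein, from 53.5, 49.4 and 51.4 FPKM to 21.7, 21.4 and 21.1 FPKM, and SREBF2, the gene of SREBP-2, from 35.5, 36.3 and 35.2 FPKM to 22.8, 23.5 and 21.7 FPKM. The falls of all 3 exceeded the spread between replicates. SCAP (0.22), the escort of SREBP, and NPC1 (0.35), which exports cholesterol from lysosomes, were higher. The letters TCACNCCAC, a core of the sterol element, were in 0 of 16 promoters of the synthesis enzymes and in 1.09% of those of all tested genes, in this short window. They were in 1.15% of promoters of genes that fell at least 2-fold and in 1.20% of those that rose.

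Fatty acid synthesis fell in 13 of 18 tested genes and rose in 1 (median -0.62). FASN, fatty acid synthase, went from 164, 169 and 161 FPKM to 74.6, 78.1 and 70.2 FPKM, FADS2, the delta-6 desaturase, from 39.2, 39.8 and 37.0 FPKM to 14.5, 15.4 and 14.8 FPKM, and ACSS2, which makes acetyl-CoA from acetate, from 25.8, 24.9 and 23.9 FPKM to 10.0, 9.79 and 9.86 FPKM. SCD (-0.90), ACLY (-0.80) and ACACA (-0.74) fell by less, and GPAM, which starts glycerolipid synthesis, rose (0.36). The drop was thus present from the making of acetyl-CoA to desaturation. Fatty acid oxidation showed no such direction, with 5 of 18 genes higher (27.8%) and 6 lower (33.3%), near the shares of all genes tested (median 0.01). PPARGC1A, a coactivator of mitochondrial genes, rose from 1.15, 1.16 and 1.16 FPKM to 2.61, 2.62 and 3.07 FPKM, PLIN2, a coat protein of lipid droplets, rose by 0.70, and FABP1, the liver fatty acid carrier, fell from 234, 210.2 and 239 FPKM to 124, 117 and 119 FPKM.

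Genes of DNA replication fell in 37 of 38 tested members, and 0 rose (median -0.85). CDC6, which loads the replicative helicase, fell from 29.3, 28.1 and 28.9 FPKM to 9.49, 9.53 and 9.85 FPKM (log2 fold change -1.57, SE 0.039, adjusted p = 3.54e-10 by limma). GINS2, a part of the active helicase, went from 11.7, 11.3 and 12.3 FPKM to 4.59, 4.62 and 4.27 FPKM, UHRF1, which keeps DNA methylation through replication, from 18.6, 19.3 and 19.6 FPKM to 7.16, 8.23 and 7.24 FPKM, and MCM6, a helicase subunit, from 19.2, 17.8 and 18.5 FPKM to 7.48, 7.40 and 7.36 FPKM. In these 4 genes every library at 12 h lay far below every library with Gln added. The 6 subunits of the MCM2-7 ring fell to different degrees: MCM6 by 1.31, MCM5 by 1.26, MCM4 by 1.12, MCM2 by 1.11, MCM3 by 0.73 and MCM7 by 0.47 on the log2 scale. ORC6 was the member that did not pass (log2 fold change -0.06, adjusted p = 0.496 by limma).

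The letters TTTNGCGC, a core of the E2F site, were found on either strand in 14 of 33 promoters of this list (42.4%), in 3.13% of those of tested genes and in 1.83% of all promoters. Among all genes that fell at least 2-fold they were in 7 of 174 promoters (4.02%), near the share of tested genes. Among those that rose at least 2-fold they were in 2 of 166 (1.20%). Stretches of 30 bases from CDC6 and 4 subunits of the MCM helicase, all of which fell, are shown, again with the match (TTTNGCGC or GCGCNAAA) in capitals and in the direction of transcription.
CDC6: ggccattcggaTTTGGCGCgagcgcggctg
MCM2: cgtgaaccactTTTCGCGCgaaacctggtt
MCM3: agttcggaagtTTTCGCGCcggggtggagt
MCM7: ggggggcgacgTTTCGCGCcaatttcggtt
MCM6: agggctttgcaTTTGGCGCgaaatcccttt
Their places in GRCh38 are chr17:40287875-40287904 (plus strand), chr3:127598402-127598431 (plus), chr6:52284728-52284757 (minus), chr7:100101388-100101417 (minus) and chr2:135876577-135876606 (minus). The match begins within 9 bases of the gene start in the first 4, and at position -152 from it in MCM6. Other promoters of the list hold it at positions such as -213 (CDT1), -137 (POLA1) and -53 (POLA2). ORC6, the member that did not pass the test, also holds a match, at position -123. The windows of MCM2 and MCM6 hold more than 1 match. MCM7 fell by 0.47 and CDC6 by 1.57 on the log2 scale, so genes with a match differed in size of change.

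Upstream of replication, cyclins, E2F factors and CDK inhibitors of G1 fell in 14 of 24 tested members and rose in 5 (median -0.26). SKP2, which marks p27 for destruction, fell from 17.8, 16.9 and 17.4 FPKM to 6.59, 7.13 and 7.96 FPKM, CDKN2C, the inhibitor p18, from 9.67, 9.07 and 9.47 FPKM to 3.73, 3.89 and 4.64 FPKM, and E2F2, an activating E2F, from 5.98, 6.11 and 5.91 FPKM to 2.75, 3.14 and 2.73 FPKM. Other E2F genes differed: E2F8 (-0.79), E2F7 (-0.74) and E2F1 (-0.53) fell while E2F3 (0.32), E2F4 (0.22), E2F5 (0.38) and E2F6 (0.14) were higher. E2F6 lost its call, at 0.11 to 0.15, without replicate 2 or 3 of either group. The fifth member that rose was CCND2 (0.65, or 0.28 with a pseudocount of 1), a D cyclin, while CCND1 (-0.24) and CCND3 (-0.74) fell. Genes of G2 and mitosis moved less, with 16 of 30 lower, 3 higher and a median of -0.16. MAD2L1 (-0.77) and TTK (-0.71) of the spindle checkpoint and the motors KIF20A (-0.75) and KIF11 (-0.61) fell most, and TPX2 (0.47), CCNB2 (0.25) and CENPA (0.18) were higher, CENPA without its call (0.15) when replicate 2 of Gln added was left out.

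Homologous recombination and Fanconi genes, the repair pathways of the study, were lower in 21 of 27 tested members and higher in 0 (median -0.45). BRIP1, a helicase of this pathway, fell from 3.16, 2.70 and 3.24 FPKM to 1.43, 1.32 and 1.501 FPKM, EXO1, a nuclease that resects ends, from 5.98, 5.67 and 5.81 FPKM to 3.19, 3.11 and 3.34 FPKM, and FANCD2, which is ubiquitinated at crosslinks, from 9.06, 9.26 and 9.42 FPKM to 5.14, 4.99 and 5.37 FPKM. The groups of these 3 were apart. RAD51AP1, a factor of strand exchange that is followed in the study, went from 15.3, 15.8 and 17.6 FPKM to 10.49, 11.03 and 11.8 FPKM (log2 fold change -0.54, SE 0.086, adjusted p = 2.95e-04 by limma). DDX5, an RNA helicase followed in the study, was higher: 136, 136 and 136 FPKM with Gln added against 169.8, 169.9 and 173 FPKM at 12 h. Its replicates were so close that a change of 1.26-fold left the groups apart.

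Targets of p53 moved in both directions, with 13 of 23 lower and 6 higher (median -0.32). The proapoptotic BBC3 (PUMA) rose from 5.09, 5.87 and 5.69 FPKM to 9.99, 10.6 and 10.9 FPKM and PMAIP1 (NOXA) from 0.804, 0.734 and 0.900 FPKM to 1.53, 1.53 and 1.72 FPKM (0.89 on the log2 scale, 0.52 with a pseudocount of 1), and PLK3, a stress kinase, rose by 0.84. POLH, a polymerase that copies past damage, fell from 4.55, 4.68 and 4.52 FPKM to 2.71, 2.66 and 2.70 FPKM. The best known targets moved little: MDM2 had a log2 fold change of -0.26, and CDKN1A (p21) did not pass (-0.07, adjusted p = 0.149 by limma). In the BCL2 family and death receptors, 13 of 20 rose and 4 fell (median 0.31). BMF, a BH3-only protein that neutralizes BCL2, rose from 1.67, 1.53 and 1.45 FPKM to 5.08, 5.81 and 5.37 FPKM, and the protective MCL1 from 51.7, 50.4 and 52.5 FPKM to 97.0, 97.3 and 103 FPKM, so that genes of opposite function rose together without overlap of the groups. FAS (-0.70), BAD (-0.51), BID (-0.49) and BAX (-0.39) fell.

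Chaperones of the endoplasmic reticulum fell in 19 of 26 tested genes and rose in 3 (median -0.25). SDF2L1, a cochaperone, went from 52.7, 48.5 and 49.0 FPKM to 17.1, 15.9 and 17.6 FPKM, HSPA5 (BiP), the main HSP70 of this compartment, from 368, 367 and 377 FPKM to 155, 150.5 and 157 FPKM, and MANF, a secreted cofactor of BiP, from 119, 115 and 126 FPKM to 50.2, 49.2 and 50.02 FPKM. The genes that rose were ERN1 and ATF6, sensors of this compartment, and XBP1, a transcription factor whose mRNA is spliced by the ERN1 protein (IRE1 alpha). ERN1 went from 1.90, 1.99 and 1.96 FPKM to 8.45, 8.56 and 8.30 FPKM, and XBP1 (0.32) and ATF6 (0.34) rose by less. Every library at 12 h was below those with Gln added for the 3 chaperones and above them for ERN1.

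Heat shock proteins fell too, with 14 of 19 lower and 3 higher (median -0.46). HSPA1A and HSPA1B, nearly identical genes between which reads can be split, fell from 37.0, 37.1 and 38.6 to 13.9, 16.2 and 14.4 FPKM and from 45.8, 46.8 and 48.5 to 15.5, 18.3 and 16.9 FPKM. HSPA8, the constitutive HSP70 and among the most abundant of the genes that fell, went from 811, 791 and 829 FPKM to 389, 408 and 412 FPKM. HSPE1, the small chaperonin of mitochondria, fell by 1.05 on the log2 scale, whereas HSPA9, the mitochondrial HSP70, rose (0.53), as did HSPA13 (0.38) and HSF1 (0.24), the heat shock factor.

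Carbon metabolism was mostly lower. In glycolysis 13 of 17 genes fell and 2 rose (median -0.49), and in the tricarboxylic acid cycle 19 of 24 fell and 0 rose (median -0.29). ALDOC, an aldolase, went from 24.5, 26.3 and 25.2 FPKM to 8.69, 9.84 and 9.33 FPKM, the glucose transporter SLC2A3 from 62.9, 63.3 and 63.7 FPKM to 30.2, 30.6 and 30.9 FPKM, and PGAM1, phosphoglycerate mutase, from 227, 224 and 229.9 FPKM to 128, 126 and 123 FPKM. The genes that rose stand at the entry of glucose, SLC2A1 (0.54) and HK2 (0.53). ACO1, the cytosolic aconitase that also binds iron-responsive RNA, fell from 10.4, 10.6 and 10.2 FPKM to 5.10, 5.25 and 5.27 FPKM, and IDH1 and OGDH, which make and use 2-oxoglutarate, fell by 0.58 and 0.50 on the log2 scale.

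Nuclear genes of the respiratory chain were lower in 36 of 51 and higher in 0 (median -0.27), led by ATP5MC1, a ring subunit of ATP synthase, at 130.2, 133 and 135 FPKM with Gln added and 76.4, 69.5 and 70.4 FPKM at 12 h. NDUFB3 (-0.73) of complex I and COX7B (-0.72) of complex IV followed. The 13 genes encoded in mitochondria did not share this fall: 3 rose, 1 fell, and the median was -0.03, and between -0.06 and 0.08 under the alternatives. CYTB of complex III rose from 1960.3, 2209 and 2036 FPKM to 2863, 2802 and 2698 FPKM (log2 fold change 0.43, adjusted p = 1.83e-04 by limma), and ND1 of complex I was higher by 0.27. ND2 (0.19) and ND4L (-0.15) of complex I were called too, but without single libraries, at 0.17 to 0.18 and -0.16 to -0.13, they were not: ND2 without replicate 1 or 3 of either group, and ND4L without any library but replicate 1 at 12 h. With no filter on low values ND1, ND2 and ND4L all lost their call (adjusted p = 0.171, 0.199 and 0.380 by limma). ND4L also lost it with median-ratio scaling and when rescaled to the same total. CYTB, ND1, ND2 and ND4L are among the most abundant of all called genes.

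Of 21 hypoxia-inducible genes, 11 fell and 4 rose (median -0.32), and the members went far apart. PFKFB4, which makes an activator of glycolysis, fell from 3.92, 3.94 and 3.81 FPKM to 0.867, 1.01 and 1.04 FPKM, and EPO, erythropoietin, from 4.72, 5.65 and 5.41 FPKM to 1.81, 1.86 and 1.503 FPKM. VEGFA, an angiogenic growth factor that ATF4 also activates, rose from 23.7, 22.5 and 23.8 FPKM to 76.3, 77.3 and 74.5 FPKM. The falls of PFKFB4 and EPO and the rise of VEGFA were each more than 2-fold in mean, without overlap of the groups.

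The ribosome behaved unlike the lists above. Of 78 tested ribosomal protein genes 69 were not called, 7 were lower and 2 higher, and the median was 0.00, although under the alternatives between 0 and 13 were higher and between 2 and 13 lower. RPS26 stood apart, at 157, 159.6 and 152 FPKM with Gln added and 69.6, 68.1 and 66.3 FPKM at 12 h (log2 fold change -1.20, SE 0.070, adjusted p = 1.91e-07 by limma). It has many processed pseudogenes, so reads could be shared with copies, and its groups did not overlap. The next largest change of the list was RPL24, with -0.23, and the members called higher were RPL5 (0.14) and RPL13A (0.14). Both lost their call, at 0.10 to 0.13, when single libraries were left out: RPL5 without replicate 2 of Gln added or replicate 1 or 3 at 12 h, and RPL13A without replicate 3 of Gln added or replicate 1 or 2 at 12 h. Ribosome biogenesis, in contrast, rose in 22 of 37 genes and fell in 5 (median 0.19). RRS1, an assembly factor of the large subunit, went from 20.5, 20.2 and 20.4 FPKM to 31.4, 29.9 and 33.1 FPKM and RRP12, an export factor, from 17.9, 18.3 and 18.3 FPKM to 27.5, 28.4 and 26.0 FPKM, while NHP2 of the box H/ACA particles fell from 86.3, 85.5 and 84.0 FPKM to 62.2, 58.3 and 54.2 FPKM.

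Genes of autophagy and lysosomes rose in 20 of 32 and fell in 2 (median 0.22). MAP1LC3B, which coats autophagosomes, went from 32.6, 33.0 and 31.0 FPKM to 93.3, 90.0 and 91.4 FPKM, ULK1, the initiating kinase, from 3.79, 3.83 and 3.36 FPKM to 9.12, 8.68 and 8.79 FPKM, and SQSTM1 (p62), a cargo receptor, from 143, 146 and 147 FPKM to 282, 291 and 273 FPKM. Rises past 1 on the log2 scale were limited to MAP1LC3B, ULK1 and GABARAPL1 (1.04). NEU1 (-0.41), a lysosomal sialidase, fell. Of the targets of NRF2, the antioxidant factor, 16 of 26 rose and 7 fell (median 0.27). Beside SLC7A11 these were MAFG, a partner of NRF2, from 11.9, 12.5 and 12.5 FPKM to 32.1, 30.8 and 31.6 FPKM, and OSGIN1 (0.96) and SRXN1 (0.92), though 90.7% of the exonic bases of SRXN1 are shared with a neighbor on its strand. GCLC (0.69), which joins glutamate to cysteine on the way to glutathione, was higher, and HMOX1 (-0.26) and PRDX1 (-0.34) lower.

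Functions of differentiated liver cells changed mildly and in both directions. Of 34 genes for secreted plasma proteins 15 fell (44.1%) and 12 rose (35.3%), beside 31.3% and 29.0% of all genes tested, and the median was -0.06. Of 14 for apolipoproteins and lipoprotein assembly 9 fell and 1 rose (median -0.19), and of 22 for the urea cycle and amino acid breakdown 14 fell and 4 rose (median -0.26). HP, haptoglobin, fell from 34.4, 41.8 and 41.6 FPKM to 15.3, 14.9 and 14.3 FPKM, and APOA5, a regulator of plasma triglycerides, from 36.2, 35.5 and 34.2 FPKM to 19.6, 18.5 and 16.1 FPKM. TAT, which breaks down tyrosine, rose from 0.831, 0.914 and 0.976 FPKM to 2.34, 2.13 and 2.48 FPKM, and GLDC, of glycine cleavage, fell from 60.2, 58.4 and 58.7 FPKM to 34.0, 34.8 and 33.5 FPKM. No groups overlapped in these 4 genes, which were picked for the size of their change. The change of TAT was 0.80 with a pseudocount of 1. ALB, albumin, and APOA2, a major apolipoprotein, were the most abundant nuclear genes called lower, ALB at 3812, 3772 and 3908 FPKM and then 3366, 3314 and 3371 FPKM, and APOA2 at 2567, 2560.3 and 2508 FPKM and then 2350.4, 2279 and 2122 FPKM. Both differences were small beside this level (log2 fold changes -0.19 and -0.18), and neither was called when no filter on low values was used. Of 17 liver transcription factors 9 rose and 3 fell (median 0.14). NR0B2 (SHP), a repressor of bile acid synthesis, rose by 0.75 and FOXA2 by 0.59, and ONECUT1 fell (-0.63) while ONECUT2 rose (0.62).

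Signaling lists were mixed. In the Wnt feedback list 4 of 11 genes rose and 4 fell (36.4% each, beside 29.0% and 31.3% of all genes tested), with a median of 0.08. DKK1, a secreted Wnt inhibitor, fell from 724, 686 and 723 FPKM to 186, 189 and 196 FPKM, and NKD1, an intracellular one, rose from 29.3, 29.0 and 28.6 FPKM to 53.5, 54.7 and 50.4 FPKM. DKK1 lies on chromosome 10 from 52314281 to 52318042, and its 3 libraries at 12 h were far below those with Gln added. In the BMP list 5 of 8 genes fell and 3 rose (median -0.36), with HAMP, hepcidin, at 59.9, 59.4 and 55.1 FPKM with Gln added and 35.3, 32.9 and 33.6 FPKM at 12 h, and BAMBI, a decoy receptor, higher by 0.48. Chemokines and NF-kappaB feedback genes rose in 8 of 10 and fell in 1 (median 0.65): RELB went from 2.23, 2.65 and 2.60 FPKM to 7.49, 7.73 and 6.97 FPKM, CCL20 from 60.3, 55.1 and 63.3 FPKM to 141, 145 and 161 FPKM and CXCL8 from 1.497, 2.29 and 2.30 FPKM to 5.53, 4.14 and 4.91 FPKM, and NFKBIA, the inhibitor, was lower (-0.22).

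Beside CYP1A1, 3 of the 8 tested genes of the aryl hydrocarbon receptor list were higher and 0 lower (median 0.18 over the 8): CYP1A2 (1.05, 1.14 and 1.04 FPKM, then 2.66, 2.47 and 2.30 FPKM, or 0.74 on the log2 scale with a pseudocount of 1), the receptor AHR itself (0.89) and NQO1 (0.27). TIPARP, another target of the receptor, did not pass (-0.10). A neighbor shares 29.5% of the exonic bases of AHR. Of 8 metallothioneins, which bind zinc and copper and are close in sequence, 5 were higher and 1 lower (median 0.27), with MT1H, the rarest, at 4 to 14 fragments in a control library and 27 to 32 at 12 h, MT1M at 19.8, 27.3 and 20.4 FPKM and 50.9, 47.3 and 37.4 FPKM and MT2A at 643, 612 and 633 FPKM and 881, 797 and 928 FPKM. MT1A was the member called lower (-0.91), a call lost at -0.81 to -0.66 without replicate 2 or 3 of Gln added or replicate 2 at 12 h. Without replicate 2 of Gln added, 3 metallothioneins in place of 5 were higher.

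Of the largest falls that belong to no list, EPN3, an endocytic adaptor, went from 2.35, 2.73 and 2.50 FPKM to 0.470, 0.405 and 0.451 FPKM. CCDC183, a coiled-coil protein, fell from 9.29, 8.97 and 8.62 FPKM to 2.28, 1.96 and 1.63 FPKM, and 70.2% of its exonic bases are shared with neighbors on that strand. LOC100507389 (from 2.97, 3.12 and 3.37 to 0.425, 0.694 and 0.836 FPKM) and LOC105370088 (from 5.64, 4.66 and 5.21 to 1.89, 1.32 and 0.754 FPKM), transcripts without an assigned function, fell with more spread at 12 h than the other genes. Groups without overlap were required for all of these falls to be chosen. With a pseudocount of 1 the falls of EPN3, LOC100507389 and LOC105370088 were -1.29, -1.34 and -1.44.

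By kind of gene, shares stand beside 29.0% higher and 31.3% lower among all genes tested. The 366 tested genes with a ZNF symbol, which encode zinc finger proteins, were higher in 157 cases (42.9%) and lower in 43 (11.7%). Their median was 0.19, but only 3 rose at least 2-fold. Of 875 long noncoding RNA genes, 152 were higher (17.4%) and 185 lower (21.1%), with a median of -0.11. Genes of any kind at 0.5 to 1 FPKM were also called less often, 14.8% higher and 18.8% lower. At least 2-fold, 19 long noncoding RNA genes rose and 51 fell, beside 1.93% and 2.00% of all genes tested. The genes whose symbols mark them as antisense to another gene (319) had a median of -0.16, with 48 higher (15.0%) and 72 lower (22.6%). The divergent transcripts (100) had a median of -0.20, with 8 higher (8%) and 23 lower (23%). Without strand, reads of an antisense gene and of its partner cannot be told apart, so these counts are uncertain.

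Between 12 h and 24 h of deprivation, 19.9% of all genes tested (2353) differed at an adjusted p under 0.05 by limma, in the same fit. Of the genes named here that the study follows, TRIB3, ASNS, DDIT3, SESN2, CEBPB, JUN and DDX5 did not pass this test. CYP1A1, among the largest rises at 12 h, was the gene of the 24 largest changes that went furthest back, to 11.3 FPKM in the mean at 24 h. These 24 genes were chosen by their values at 12 h, which favors moves back.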

How the data were processed

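RNA of HepG2 cells was sequenced with Gln added and after 12 h and 24 h without Gln, in 3 libraries each. The authors aligned the reads with STAR to GRCh38, and the labels name HTSeq and R 3.2.0. The authors deposited 1 table of FPKM, normalized by them for gene length and library depth, and their own differential test used DESeq2. From the FPKM steps whole fragments were recovered (tolerance 0.001 fragments) for 100% of 22587 genes, which gave the depth of 29621270 to 36261546 fragments and an added count test.

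Genes averaging 0.5 FPKM or more in the 6 libraries were tested on log2(FPKM + 0.1) with limma 3.58.1 (R 4.3.3), with a trend, all 9 libraries in 1 fit of 3 groups, and p-values adjusted by Benjamini-Hochberg over 11840 genes. Fold changes are on this scale, which understates the changes of low genes. With 5 simulated sets for this comparison, 981 of 987 tested genes changed 2-fold were called and 55 of 1036 calls were false (11860 to 11886 genes tested per set). Each set had 200 genes changed 2-fold, all others unchanged and the same spread setting for every gene. These shares therefore do not cover the smaller changes that make up most calls here. The members and the 44 gene lists were chosen with earlier results of these data known.

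Named were the 12 largest rises and falls among called genes with non-overlapping libraries and an average of 1 FPKM or more, up to 4 called members of each list with the largest changes and members that did not pass, the 3 most abundant called genes each way, and the genes the study follows. Other list members and KLHDC7B, FUT1 and SLC22A15 were named after their values were seen. A few genes chosen by this rule are left out here. Gene positions and overlaps are from GENCODE v44, promoters from RefSeq (GRCh38.p14), matched for 9522 of the tested genes. Alternatives were other pseudocounts and filters, scalings, tests, each library left out and the replicate number as a block. Table columns all belonged to a sample. Python 3.11.15 with numpy 2.4.6, pandas 2.3.3 and matplotlib 3.10.9 did the rest.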

Additional observations from a re-analysis of the deposited data

Results flagged for a closer look

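For 34 genes, those with the 24 largest changes at 12 h and those the study follows, the level at 24 h of Gln deprivation was tested against that at 12 h within the same limma fit, and the genes whose change differed between these times are given here. Among genes that rose by 12 h, CYP1A1 was lower again at 24 h, with a log2 difference from 12 h of -2.43 (adjusted p = 8.64e-10 by limma), from a mean of 61.2 FPKM to 11.3 FPKM. AKNA differed by -0.47 and MYC by -0.26, so that both were nearer to Gln added at 24 h than at 12 h. Other rises were larger still at 24 h. DUSP5 differed by a further 1.15 (mean 5.66 FPKM at 12 h and 12.7 FPKM at 24 h), DEPP1 by 0.74, EGR1 by 0.60, AREG by 0.53 and IGFBP1 by 0.47, with adjusted p between 2.13e-05 and 0.00412 by limma. Among genes that fell by 12 h, DKK1 was lower still at 24 h (a difference of -0.48, mean 136 FPKM) and so was RAD51AP1 (-0.36), while FDFT1 was slightly nearer to Gln added (0.12, adjusted p = 0.0372 by limma). The 24 h libraries were compared with the 12 h libraries directly, without the shared control libraries. The same 12 h libraries had served to choose the 24 largest changes, and that choice favors moves back toward Gln added. No cause of the differences was tested.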

How the results depend on the processing

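Over 16 alternatives the number of called genes stayed between 6447 and 7362, lowest without replicate 3 of Gln added (6447 to 6891 over the libraries left out), and all 384 alternative values of the 24 largest changes kept their call and direction. Same-numbered libraries showed almost no shared deviation (correlations of 0.0186, 0.00587 and 0.0184). With 3 libraries per group this cannot settle whether the numbers pair them. A fit with the replicate number as a block called 7330 genes in place of 7133. With a pseudocount of 1, 233 genes had a 2-fold change (133 higher and 100 lower), and with a threshold of 2 on the log2 scale 41 did (32 higher and 9 lower). Metallothioneins called higher numbered 3 to 5 as libraries were left out. The share of called genes that were higher was 48.1%, 51.2% with median-ratio scaling and 53.4% with each library rescaled to the same total. Of 291 named genes, 14 lost their call under some alternative, among them CENPA, DUSP7, E2F6, SLC36A4, RPL13A, ALB, APOA2, MT1A, ND1, ND2, ND4L, RPL5 and RPS9. Genes that had no call changed sign near 0: GGPS1 was 0.0066 when rescaled to the same total, and with single libraries left out ATF5 ranged from -0.0136 to 0.0537, JUND from -0.0669 to 0.0043 and VARS1 from -0.0299 to 0.0482. The cause was not tested. Depth limits genes with under about 20 fragments per library, such as KLHDC7B, FUT1, FOS and ASNS with Gln added.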
